A study of Mus musculus with 119 samples.

Results

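The cytosolic ribosomal protein genes of cultured mouse macrophages are described here. Members were taken by symbol alone: genes of the deposited expression table named as a protein of the large (Rpl, Rplp) or small (Rps, Rpsa) subunit, leaving out symbols marked -ps and the S6 kinase genes. The rule found 82 of 18098 genes, of which 49 belong to the large subunit and 33 to the small subunit. The rule used no expression value, although it was set with earlier results of these data known. The annotation places them on 19 chromosomes, with 14 on chromosome 7. Of the 82, Rpl32l and Rps4l are annotated as processed pseudogenes that the naming rule does not separate from genes, and Rpl3l and Rpl39l are paralogs known from other tissues.

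The ribosome is built from ribosomal RNA and 1 copy of nearly every ribosomal protein, so cells make these proteins together and in large amounts. Their mRNAs are short and abundant, and most start with a run of pyrimidines (the 5′ terminal oligopyrimidine, or TOP, motif) through which growth signalling controls how strongly they are translated. Signalling can therefore change ribosomal protein synthesis without changing mRNA level, and mRNA level is all that was measured here. Rps6 encodes S6, a small subunit protein that the S6 kinases and RSK phosphorylate, RSK being a kinase downstream of ERK1/2. In macrophages, LPS binds TLR4 and switches on cytokine genes within minutes to hours, against which housekeeping genes such as these are often read as a constant background.

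The study asked how the kinase TPL-2 (encoded by Map3k8), which activates ERK1/2, controls transcription in macrophages stimulated through TLR4. Bone marrow-derived macrophages (BMDMs) from C57BL/6(NIMR) mice were profiled by RNA-seq. WT cells were untreated or given LPS (100 ng/ml) for 0.5, 1 or 2 h, with 6 libraries at each time and 4 at 2 h. Map3k8[D270A] cells, which carry kinase-inactive TPL-2, had 6 libraries at each of the same 4 times. Elk1-/-Elk4-/- cells, which lack a pair of ternary complex factors that ERK1/2 phosphorylates, had 4 libraries at each of these times. Nfkb1[SS/AA] cells, in which p105 cannot be phosphorylated by the IκB kinase and TPL-2 is not released, had 6 libraries at 0, 0.5 and 1 h. Of the inhibitor arms, both in WT cells, the first received PD0325901 (0.1 µM, an MKK1/2 inhibitor), with 3 libraries each at 10, 40 and 70 min without LPS, 6 each after 0.5 or 1 h of LPS that followed a 10 min pretreatment, and 3 DMSO libraries at 10 min. The second received RSKi47 (2 µM, a RSK inhibitor), with 4, 3, 4 and 4 libraries at 0, 0.5, 1 and 2 h of LPS. RSKi47 was given 10 min before LPS, and the libraries without LPS had 10 min of it before harvest. The study's methods call the libraries biological replicates without saying whether each came from a mouse of its own, so p-values measure the spread between these libraries.

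The deposited values are on a log2 scale, and every difference below is a difference of those values. The labels, the methods and the table do not name the transformation. Whole reads could not be recovered from them, so the sequencing depth behind each value is unknown. The 8 macrophage markers reached a summed level of 18.4 to 19.2 in every group. Lyz2 had the highest level of the 8 (median 18.1) and so carried most of that sum, with Cd68 next at 15.4. Cd3e, a T cell gene, was below -1.41 in every library, whereas the B cell gene Cd79b was between 4.91 and 6.91. In the Elk1-/-Elk4-/- libraries Elk1 was between 6.17 and 6.59 (n = 16), against 8.55 to 9.49 in the other 103, and Elk4 was between 5.51 and 5.88, against 6.88 to 8.56. WT and Map3k8[D270A] libraries carry the same experiment name in the labels, whereas the other arms each carry a name of their own. A difference of those arms from WT therefore cannot be told apart from a difference between experiments, whereas the LPS responses within an arm compare libraries of 1 experiment. Replicate 2 of Nfkb1[SS/AA] at 1 h and RSKi47 replicate 4, which was given at 0, 1 and 2 h, lay far from their groups over all genes, and the main results that rest on them are also given without them.

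Most ribosomal protein mRNAs were among the most abundant transcripts of these cells. Of the 82 members, 73 had a mean level over 11 across all libraries (11.68 to 14.68), all of them above at least 93.1% of the genes in the table. On the linear scale the members made up 3.49% of the summed values. Relative to transcript length, the highest members were Rplp1 (14.88 on the log2 scale per kilobase), a P1 stalk protein that helps recruit elongation factors, Rpl10 (14.74), which shapes the joining of the subunits, and Rps12 (14.66). Rplp0, the base of the stalk, had the highest level before length was considered (14.68) and was at 14.23 per kilobase. A further 6 members lay between 5 and 11, namely Rps27, Rps4l, Rpl30, Rpl26, Rpl34 and Rps27l, and 3 lay under 5. Rpl3l, known from muscle, was at -0.27 on average and never above -0.09, and Rpl39l, known from testis, was at 2.38. Neither Rpl3l nor Rpl39l passed the filter on low values, so 80 of the 82 members were tested.

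**Figure D1:**
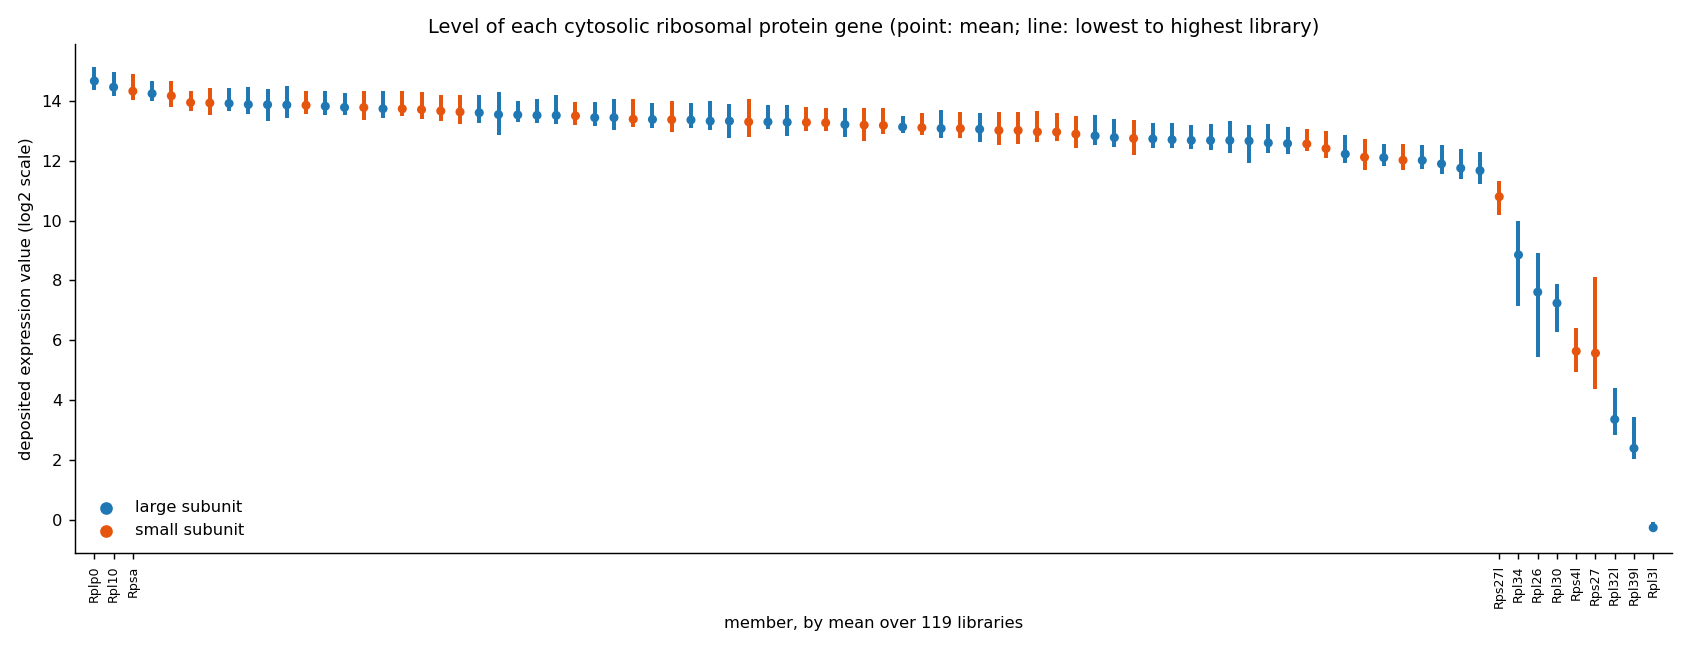
Deposited level (log2 scale) of each of the 82 members, ordered by the mean over all libraries (point), with the line from the lowest to the highest library. The names of the 3 highest and of the members with a mean under 11 are given. The 73 members on the left lie between 11.68 and 14.68, with 6 between 5 and 11 and 3 under 5.

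Some of the low members have close copies elsewhere in the genome whose reads cannot always be told apart. Rps27 had a mean of 5.57, whereas its retrotransposed copy Rps27rt had a mean of 12.48. Rpl34 was at 8.86 and the copy Rpl34-ps1 at 12.41. Rps27 fell in separate bands, with 90 libraries between 4.35 and 5.52 and 29 between 6.77 and 8.13, and 17 of the 25 groups had libraries in both bands. How reads were divided between gene and copy was not tested, so the differences of these genes are uncertain and are given below with the sum of gene and copy.

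The members rose and fell together across libraries. For the 73 members with a mean over 11, the correlation of a member with the median of the other members over all libraries was between 0.466 and 0.957, with a median of 0.878, and 71 of 73 were above 0.5. The medians of the large and small subunit members followed each other with r = 0.989. The median of all members followed that of the nuclear oxidative phosphorylation genes with r = 0.903 and that of the ribosome biogenesis genes with r = 0.514. These are descriptions across libraries that share arms, experiments and a common scaling, and carry no p. The least coherent of the abundant members were Rps15a (0.466), a small subunit protein, and Rpl28 (0.500), a large subunit protein. Over the 73 members the range of the 25 group means had a median of 0.47, against a median SD within groups of 0.08. The range was widest for Rps15a (0.96). In the plot of the median deviation by library, RSKi47 libraries at every time and Elk1-/-Elk4-/- libraries at 0, 0.5 and 1 h were low, and the WT, Map3k8[D270A] and Elk1-/-Elk4-/- groups at 2 h had means of 0.14, 0.10 and 0.09.

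**Figure D2:**
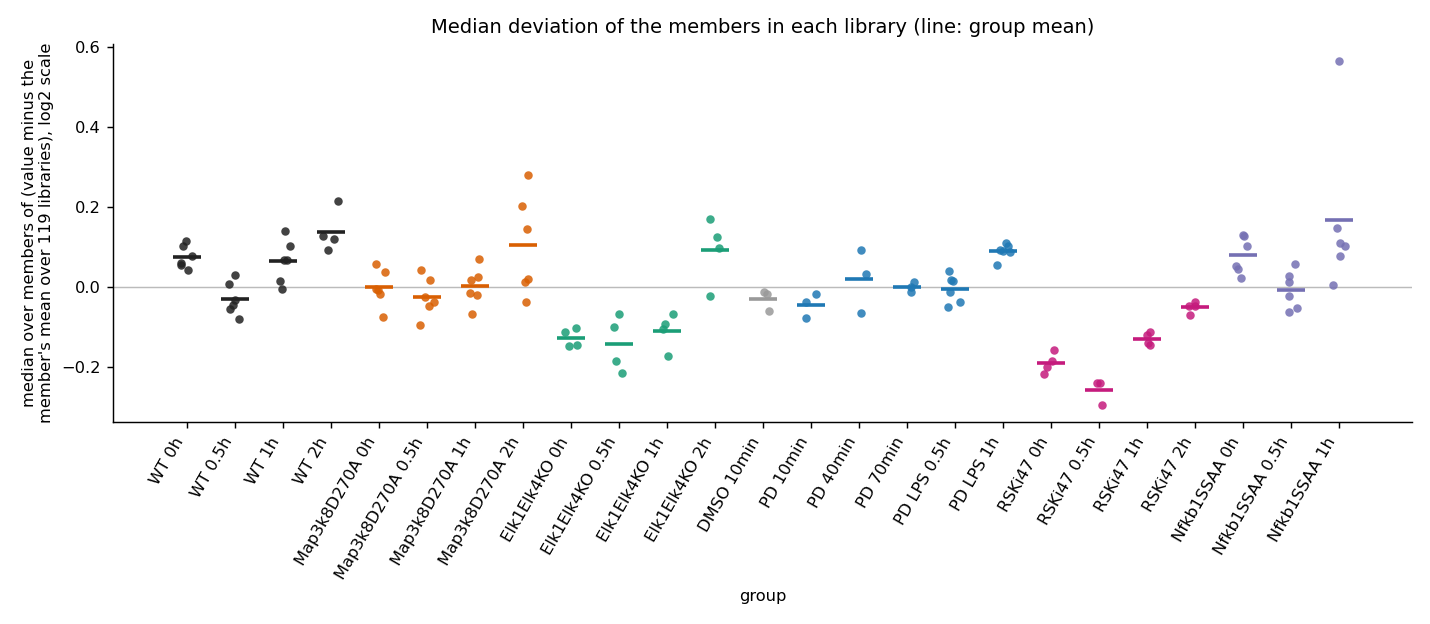
Median over the members of the deposited value minus the member's mean over all libraries (log2 scale), 1 point a library and a line for the group mean. The RSKi47 libraries without LPS lie between -0.22 and -0.16, those of WT at 0 h between 0.04 and 0.11, and replicate 2 of Nfkb1[SS/AA] at 1 h stands at 0.57.

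In WT macrophages the LPS response of the ribosomal protein genes was a dip at 0.5 h followed by a small rise by 2 h, with no member called with a 2-fold change. The median deviation went from 0.08 ± 0.03 at 0 h (SD, n = 6) to -0.03 ± 0.04 at 0.5 h (n = 6), 0.06 ± 0.05 at 1 h (n = 6) and 0.14 ± 0.05 at 2 h (n = 4). At 0.5 h, 9 of 80 members were lower than at 0 h and 0 higher by limma with Benjamini-Hochberg adjustment over all genes, where 3.81% of all genes were lower and 7.82% higher. The median difference of the members was -0.10, against 0.00 over all genes, and all 47 tested large subunit members had a negative difference. Among the 9 were Rps3 (-0.12, SE 0.04, adjusted p = 0.0357, limma), a small subunit protein at the mRNA entry channel, and Rpl11 (-0.11, SE 0.03, adjusted p = 0.0270, limma), which with Rpl5 binds MDM2 when ribosome assembly fails. In 23 members the 6 libraries at 0.5 h all lay below the 6 at 0 h, where 2.58% of all genes did so.

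The count at 0.5 h was unstable while the direction was not. With a replicate block, which compares paired libraries of the same number, 35 members were lower. Within WT replicates 4 to 6 the count was 53, with a median difference of -0.13, and within replicates 7 to 9 it was 1, with -0.07. It was 5 without WT 0 h replicate 4, 1 without WT 0 h replicate 5, 6 or 9, 2 without WT 0.5 h replicate 5 or 8 and 0 without WT 0.5 h replicate 6. All 9 members kept a negative difference in each of these fits.

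At 1 h the members were back near their starting level, with a median difference of -0.02. Of the members, only Rpl24 (0.10, SE 0.04, adjusted p = 0.0156, limma) and Rpl29 (0.08, SE 0.03, adjusted p = 0.0474, limma) were higher, where 23.8% of all genes were higher and 23% lower. In place of 2 members, 1 was called without WT 0 h replicate 5, 6, 7 or 8 or without WT 1 h replicate 5, 6 or 9. With libraries centred on their median none was called, and with array weights more were.

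The dip of the members at 0.5 h of LPS was read in the other arms against their own unstimulated libraries. In Nfkb1[SS/AA] cells 7 members were lower and 0 higher by limma (median -0.09), where 6.07% of all genes were lower and 8.55% higher. In Map3k8[D270A] cells 0 were called by limma (median -0.02) and 0 had an unadjusted p under 0.05, where 1.17% of all genes were lower and 3.91% higher. In Elk1-/-Elk4-/- cells 0 were called by limma (median -0.02, 1 at an unadjusted p under 0.05), where 1.74% of all genes were lower and 3.22% higher. Under PD0325901 2 members were lower and 0 higher than after 40 min of inhibitor alone (median -0.03), where 5.56% of all genes were lower and 9.38% higher. Under RSKi47 0 were called by limma (median -0.07, 7 at an unadjusted p under 0.05), where 1.7% of all genes were lower and 3.39% higher, while in 50 members the 3 libraries at 0.5 h all lay below the 4 at 0 h, where 9.85% of all genes did so. These counts are from fits without pairing. Same-numbered libraries deviated together in Map3k8[D270A] (r = 0.43 to 0.76), Nfkb1[SS/AA] (0.36 to 0.67) and RSKi47 (0.11 to 0.27). Counts with a replicate block are not given here for these arms. The median deviation of the members fell in all 6 Nfkb1[SS/AA] pairs and all 3 RSKi47 pairs. In Map3k8[D270A] cells it rose in replicates 4 and 6 and fell in the others. Whether the dip differed between arms was not tested.

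By 2 h, 18 of 80 members were higher than at 0 h and 0 lower, where 34.7% of all genes were higher and 36.8% lower. The median difference of the members was 0.06, against -0.02 over all genes. Of the tested genes 1309 (11%) were called with a change of 2-fold or more, and 0 of them were members. The rise was clearer from the dip: between 0.5 and 2 h of LPS, 61 members were higher and 0 lower, with a median difference of 0.16, where 36.2% of all genes were higher and 36% lower. In 51 members the 4 libraries at 2 h all lay above the 6 at 0.5 h, where 29.6% of all genes did so. Against the 6 at 0 h it was so for only 16 members, for which the share over all genes is not given here. The 18 members at 2 h were 14 of the large subunit and 4 of the small subunit. Without WT 2 h replicate 7 the count at 2 h was 11, and within WT replicates 7 to 9, where that library is the only one at 2 h and is assumed to vary like the other groups, it was 30 with a median of 0.13.

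Rpl24 had the largest difference among the called members in WT cells and rose in every arm. It encodes a large subunit protein at the interface between the subunits, and lies on chr16:55966275-55971435 (GRCm38). In WT cells it was at 12.56 at 0 h (12.53 to 12.60, n = 6), and the 4 libraries at 2 h were at 12.88, 12.84, 12.92 and 12.91. All 4 lay above all 6, a difference of 0.33 (SE 0.04, adjusted p = 1.71e-10, limma). In Elk1-/-Elk4-/- cells Rpl24 went from 12.52, 12.51, 12.57 and 12.53 at 0 h to 12.93, 12.82, 13.04 and 12.92 at 2 h (0.40, SE 0.04, adjusted p = 1.40e-11, limma). With RSKi47 it went from 12.37, 12.39, 12.42 and 12.33 to 12.66, 12.73, 12.77 and 12.74 (0.35, SE 0.05, adjusted p = 2.09e-09, limma). In these arms too the groups did not overlap.

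Its rise in Map3k8[D270A] cells was 0.28 (SE 0.04, adjusted p = 5.57e-10, limma) from 12.50 ± 0.09 to 12.78 ± 0.11 (SD, n = 6 each). After 1 h of LPS Rpl24 was higher by 0.20 in Nfkb1[SS/AA] cells (SE 0.04), or by 0.12 without 1 h replicate 2, and by 0.22 under PD0325901 (SE 0.05). The promoter of Rpl24 held neither the ETS letters nor the pyrimidine start described below. Its 100 bases before and 20 after the RefSeq start are shown because of this rise (chr16:55966175-55966294, + strand, GRCm38.p6).
Rpl24: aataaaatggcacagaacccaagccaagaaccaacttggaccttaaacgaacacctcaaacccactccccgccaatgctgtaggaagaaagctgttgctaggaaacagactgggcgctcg

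**Figure D3:**
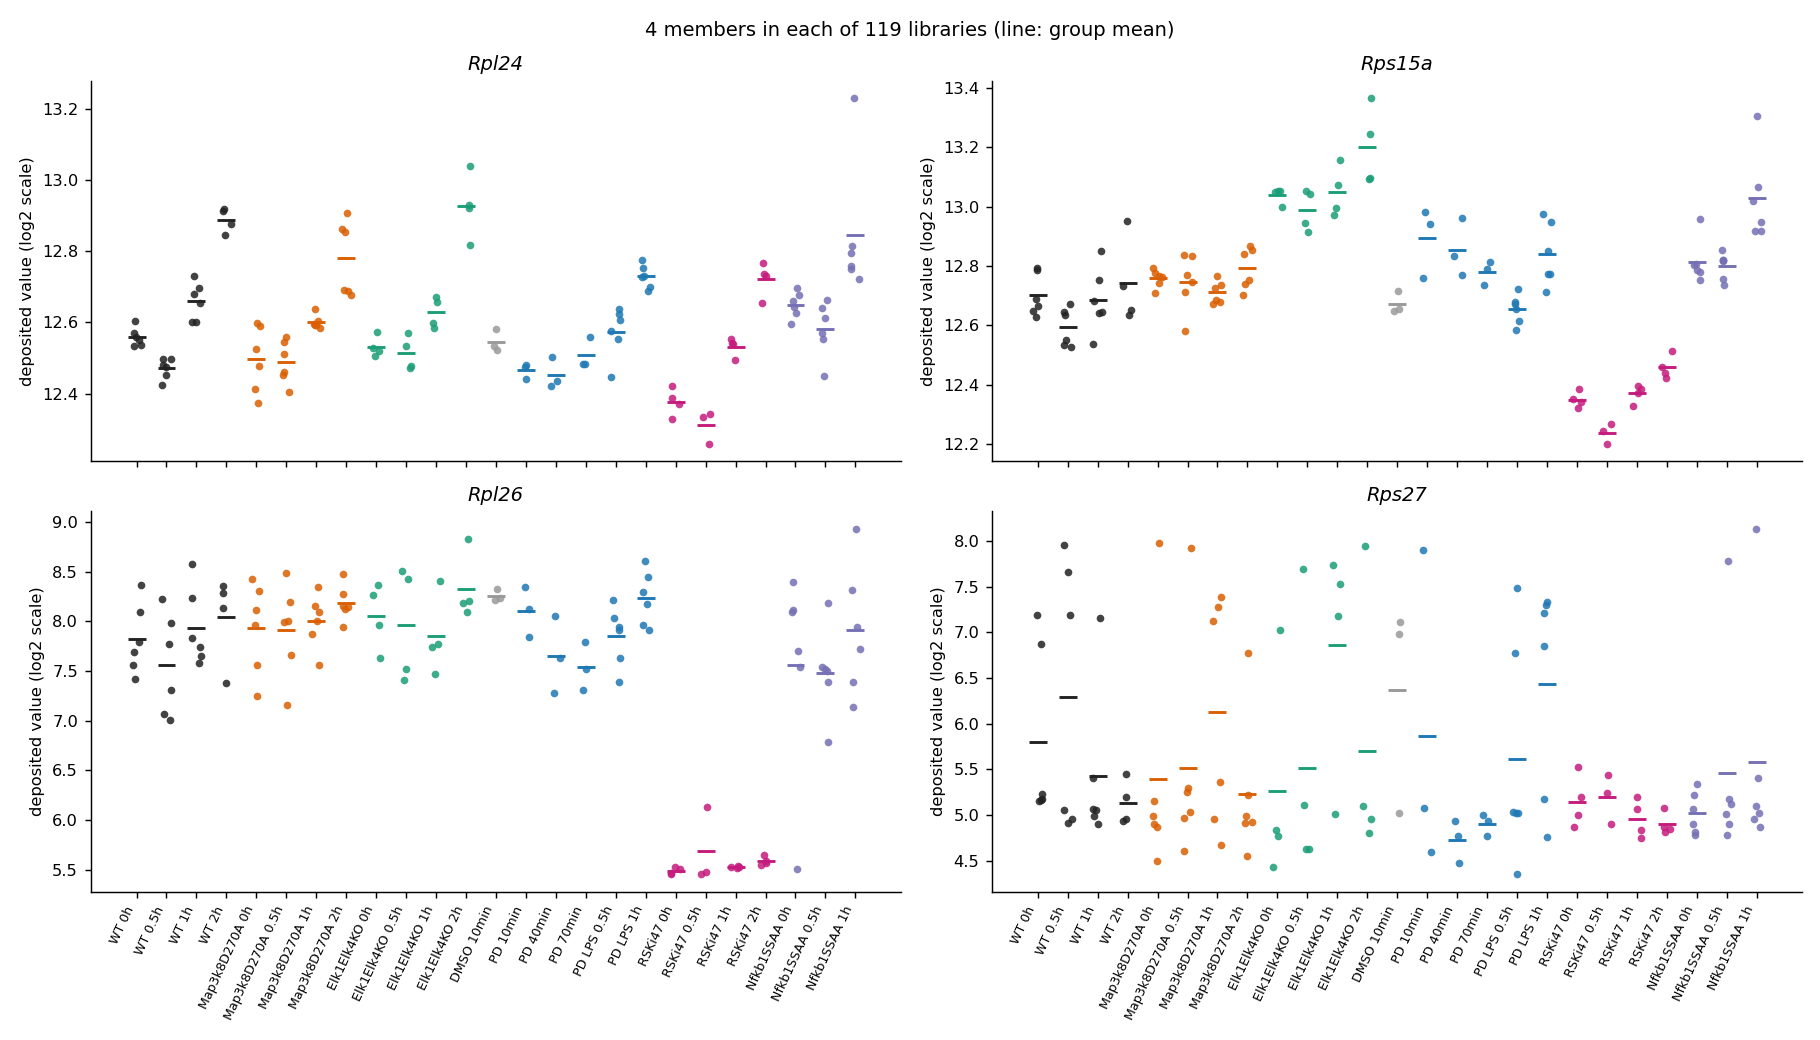
Deposited values (log2 scale) of Rpl24, Rps15a, Rpl26 and Rps27 in each library by group, with a line for the group mean. Rpl24 is higher after LPS in the WT, Map3k8[D270A], Elk1-/-Elk4-/- and RSKi47 libraries at 2 h, Rps15a has its highest group mean in Elk1-/-Elk4-/- at 2 h, Rpl26 lies between 5.46 and 6.13 in the RSKi47 libraries, and Rps27 falls in 2 bands.

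The members were also read at 2 h in the other arms that had this time point. In Map3k8[D270A] cells 44 members were higher and 0 lower (median 0.10), where 34.9% of all genes were higher and 34.6% lower. In Elk1-/-Elk4-/- cells 74 were higher and 0 lower (median 0.23), where 35.2% were higher and 32% lower, and under RSKi47 40 were higher and 0 lower (median 0.13), where 32.5% were higher and 29.7% lower. Without the libraries that stand apart the RSKi47 count was 36 (median 0.12). Over all genes the median difference in these 3 comparisons was between -0.01 and 0.01. In Elk1-/-Elk4-/- cells the libraries at 2 h all lay above those at 0 h for 64 members, where 32.4% of all genes did so. It was so for only 3 members in Map3k8[D270A] cells and for 59 under RSKi47, for which the share over all genes is not given here. In all 4 arms 16 members (20%) were called higher at 2 h, against 25% of all genes, among them Rpl5, Rps6, Rplp0, Rpl24 and Rps3a1, and 6 (7.5%) were called higher in none, against 55.5% of all genes, namely Rpl26, Rpl32l, Rpl34, Rps27, Rps27l and Rps4l. Rps27l is a paralog of Rps27 that p53 induces, Rpl32l and Rps4l are annotated pseudogenes, and Rpl34 and Rps27 have more abundant copies.

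Of the members known by their role, Rplp0 rose by 0.13 in WT (SE 0.05, adjusted p = 0.0312, limma), 0.11 in Map3k8[D270A] (SE 0.05, adjusted p = 0.0285, limma), 0.27 in Elk1-/-Elk4-/- (SE 0.06, adjusted p = 4.28e-05, limma) and 0.20 under RSKi47 (SE 0.05, adjusted p = 0.000756, limma). Rps6 rose by 0.10, 0.10, 0.24 and 0.19 in the same arms. In WT the Rps6 level was 13.85 ± 0.05 at 0 h (SD, n = 6) and 13.94, 13.87, 13.96 and 14.06 in the 4 libraries at 2 h, so the groups overlapped. Rps19, needed to process small subunit RNA, did not pass in WT (0.02, SE 0.05) and rose in Elk1-/-Elk4-/- cells (0.20, SE 0.06, adjusted p = 0.00195, limma).

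The Map3k8[D270A] rise differed between sets of libraries. Within Map3k8[D270A] replicates 1 to 3, 2 members were higher and 13 lower at 2 h (median -0.04), and within replicates 4 to 6, 70 were higher and 1 lower (median 0.24). The median deviations at 2 h were 0.02, 0.01 and -0.04 in replicates 1 to 3 and 0.28, 0.20 and 0.15 in replicates 4 to 6. Without Map3k8[D270A] 2 h replicate 4 or 5 the count was 27 or 28, in a fit on the groups alone it was 23, and with array weights 9. Rps28 and Rps29, with the largest differences over all 6 after Rpl24 (0.24 each, SE 0.07 and 0.06), were at -0.03 and -0.0080 within replicates 1 to 3. The relation therefore does not hold within both sets, and what separates them was not tested.

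After 1 h of LPS the Nfkb1[SS/AA] cells had 29 members higher and 1 lower (median 0.09), where 22.5% of all genes were higher and 21.9% lower. Much of this count rests on 1 library. The median level of the members was 13.77 in replicate 2 and 13.18 to 13.34 in the other 5 libraries at 1 h. Without that replicate the count was 8, and leaving out the 4 libraries that stand apart it was 6 higher and 2 lower with a median of 0.01. Without Nfkb1[SS/AA] 0 h replicate 3 it was 17. The libraries at 1 h all lay above those at 0 h for only 1 member, the share over all genes not being given here. Under PD0325901, 16 members were higher and 0 lower after 1 h of LPS than after 70 min of inhibitor alone (median 0.09), where 21.9% of all genes were higher and 21.7% lower. The 6 libraries that had received LPS all lay above the 3 without it for 46 members, where 25.3% of all genes did so. Without PD 70 min replicate 1 the count was 10, and without the libraries that stand apart, none of which is in these groups, it was 30.

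Whether the response to LPS differed from that of WT was tested as an interaction. It was larger in Elk1-/-Elk4-/- cells for 15 members and smaller for 0 (median 0.17), where 8.17% of all genes had a larger and 8.76% a smaller response. Among the largest were Rps21 (0.28, SE 0.08, adjusted p = 0.0179, limma) and Rps15 (0.26, SE 0.07, adjusted p = 0.00943, limma), both of the small subunit. Leaving out 1 library moved this count beyond 1.5 times in 5 cases, to 28 without WT 2 h replicate 7, 9 without Elk1-/-Elk4-/- 0 h replicate 1 or 2 h replicate 1, 39 without 2 h replicate 2 and 8 without 2 h replicate 3. It also rose beyond 1.5 times with a replicate block or array weights and fell as far with centred libraries, as listed in the last section.

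In Map3k8[D270A] cells 0 members differed from WT in the response at 2 h by limma (median 0.04), with 4 at an unadjusted p under 0.05, where 6.94% of all genes had a larger and 8.6% a smaller response. With a replicate block 4 were called, 3 larger and 1 smaller, and 0 to 2 when 1 library was left out, with 1 called without WT 0 h replicate 8, Map3k8[D270A] 0 h replicate 2 or 3 or 2 h replicate 2, and 2 without 2 h replicate 3. In Nfkb1[SS/AA] cells Rps15a (0.23, SE 0.07, adjusted p = 0.0155, limma) and Rpl27 (0.19, SE 0.06, adjusted p = 0.0475, limma) had a larger response at 1 h, where 1.77% of all genes had a larger and 4.3% a smaller one. With a replicate block there were 6. There were 0 without Nfkb1[SS/AA] 1 h replicate 2 or WT 1 h replicate 4, and 1 without WT 0 h replicate 5, 6, 7 or 9, WT 1 h replicate 5, 6 or 8, or Nfkb1[SS/AA] 0 h replicate 2, 3, 4 or 6. There were 4 without WT 1 h replicate 9, Nfkb1[SS/AA] 0 h replicate 1 or its 1 h replicate 6, and 7 without its 1 h replicate 3. Under RSKi47 it was Rpl15 alone (0.16, SE 0.06, adjusted p = 0.0456, limma), where 10.6% of all genes had a larger and 10.4% a smaller response, and none was called when any 1 library other than WT 0 h replicate 4, 5 or 6 or WT 2 h replicate 7 was left out. Under PD0325901 0 were called by limma, with 21 at an unadjusted p under 0.05, 9 in a fit on the groups alone and 22 with array weights, where 1.1% of all genes had a larger and 2.48% a smaller response. The count was 0 or 1 when 1 library was left out, the 1 without WT 0 h replicate 7 or WT 1 h replicate 9.

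Other gene groups of translation and energy supply were read beside the members. Of 36 ribosome biogenesis genes, which make and process ribosomal RNA, 28 were higher and 2 lower in WT cells at 2 h, with a median of 0.34, against 0.06 for the members. The shares of all genes at 2 h were those given above, 34.7% higher and 36.8% lower. Of 77 mitochondrial ribosomal protein genes 17 were higher and 28 lower (median -0.02), and at 1 h 2 were higher and 41 lower (median -0.09), where 23.8% of all genes were higher and 23% lower. Of 19 translation genes that carry a TOP motif or encode a ribosomal fusion protein, 9 were higher and 2 lower at 2 h (median 0.11). Of 74 tested nuclear genes of oxidative phosphorylation, which like the members have short abundant mRNAs, 16 were higher and 5 lower (median 0.02).

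**Figure D4:**
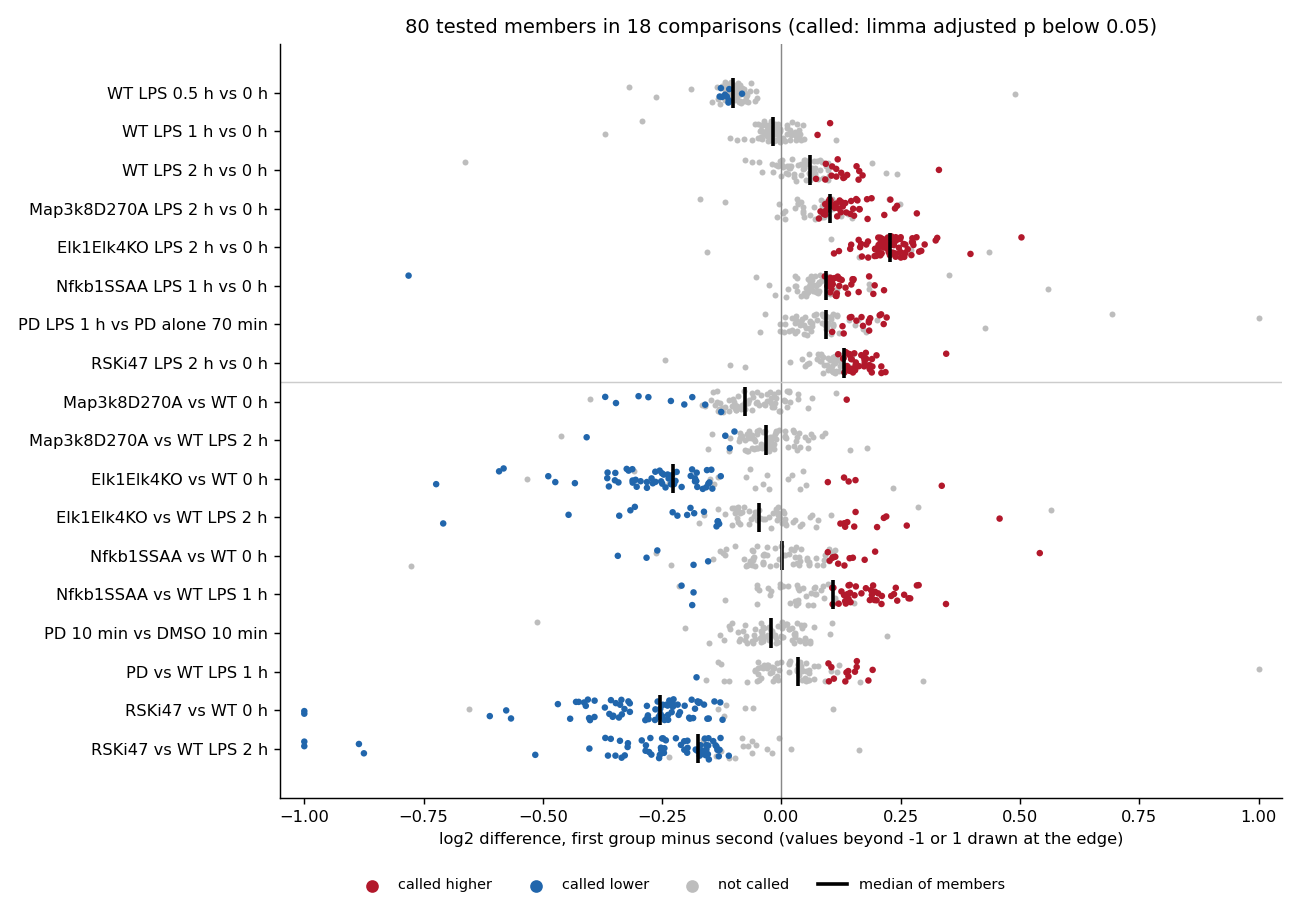
Log2 difference (first group minus second) of each of the 80 tested members in 18 comparisons, with members called at a limma adjusted p below 0.05 in colour and the median as a bar; values beyond -1 or 1 are drawn at the edge. The members lie mostly above 0 in the LPS 2 h responses and mostly below 0 for Elk1-/-Elk4-/- and RSKi47 against WT.

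Unstimulated Elk1-/-Elk4-/- macrophages had lower levels of most ribosomal protein mRNAs than WT. Of 80 members, 57 were lower and 5 higher by limma, with a median of -0.23, where 24.6% of all genes were lower and 27.2% higher with a median of 0.01. For 57 members the 4 Elk1-/-Elk4-/- libraries all lay below the 6 of WT, where 18.5% of all genes did so, and for 5 all lay above, where 20.7% did so. By subunit, 33 of 47 large and 24 of 33 small subunit members were lower, with medians of -0.23 and -0.22. At 0.5 h of LPS 44 were lower and 6 higher (median -0.12), where 22% of all genes were lower and 22.4% higher. At 1 h 55 were lower and 5 higher (median -0.16), where 26.2% were lower and 27.2% higher, and at 2 h 15 were lower and 11 higher (median -0.05), where 23.1% were lower and 27.7% higher. The 0 h count was 60 to 64 when any 1 library was left out.

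The lowest members were Rpl41, Rps21 and Rpl36. Rpl41, which encodes the shortest protein of the ribosome, was at 12.90, 13.01, 12.96 and 12.80 in the Elk1-/-Elk4-/- libraries at 0 h and at 13.55 to 13.74 in WT (median 13.64, n = 6). No library of one group reached the other, and the difference was -0.72 (SE 0.08, adjusted p = 3.00e-11, limma). Rps21 was at 11.79, 11.85, 11.88 and 11.76 against 12.33 to 12.48 (median 12.42, n = 6), a difference of -0.59 (SE 0.06, adjusted p = 3.39e-12, limma). Rpl36, also of the large subunit, was lower (-0.58, SE 0.07, adjusted p = 5.74e-10, limma), as was the stalk protein gene Rplp1 (-0.49, SE 0.07, adjusted p = 5.45e-08, limma). Rplp0 was at 14.45, 14.46, 14.51 and 14.43 against 14.68 to 14.81 (median 14.69, n = 6), a difference of -0.25 (SE 0.05, adjusted p = 7.80e-05, limma).

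The 5 higher members were Rps15a, Rps4x, Rpl10, Rpl5 and Rpl21. Rps15a was at 12.997, 13.05, 13.05 and 13.05 against 12.63 to 12.79 (median 12.68, n = 6), a difference of 0.34 (SE 0.05, adjusted p = 5.72e-07, limma). Its copy Rps15a-ps6 differed the other way by -2.05, and the sum of both by 0.17. Rps4x and Rpl10 were higher by 0.16 (SE 0.04, adjusted p = 0.000288, limma) and 0.14 (SE 0.03, adjusted p = 0.000344, limma). Rps6 did not differ beyond its error (0.02, SE 0.04), with 13.83, 13.86, 13.89 and 13.91 against 13.79 to 13.92.

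Other features moved with this difference. The oxidative phosphorylation genes were lower too (59 of 74 lower, 2 higher, median -0.23), as were the mitochondrial ribosomal protein genes (49 of 77 lower, 3 higher, median -0.18) and the ribosome biogenesis genes (24 of 36 lower, 1 higher, median -0.24), whereas of the translation genes 6 of 19 were higher and 5 lower (median 0.08). Neutrophil and precursor markers were higher, all 6 tested of 8, with a median of 3.37 and a summed level of 10.0 to 10.5 against 6.41 to 7.22 in WT, and Elane, which marks neutrophil precursors, stayed below 1. The 8 macrophage markers summed to 18.4 in these libraries and to 18.6 to 18.8 in WT. The 4 B cell markers summed to 6.63 to 7.08, against 5.85 to 6.47 in WT. The part of these cell type markers in the result was not tested. Fewer cells of a type and less RNA per cell cannot be told apart in such bulk samples.

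Ternary complex factors belong to the ETS family, whose members bind DNA around a GGAA core, so the promoters were read for the letters CCGGAAG on either strand. RefSeq promoter windows of 300 bases (250 before and 50 after the start, GRCm38.p6) were matched for 61 of the 82 members. At least 1 window held these letters in 26 of 61 member genes (42.6%), against 9.93% of 27025 genes. The share was 36.8% among 68 mitochondrial ribosomal protein genes and 23.0% among 61 oxidative phosphorylation genes. A start at a C followed by 4 more pyrimidines (C or T) on the transcribed strand, as a TOP mRNA would have, was annotated for 14 of 61 member genes (23.0%), against 3.01% of all genes. This count depends on the exact annotated start base. The pyrimidine start was read on the transcribed strand only, and it can overlap the ETS letters on either strand.

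Members with and without the CCGGAAG letters had similar differences from WT in Elk1-/-Elk4-/- cells at 0 h. The 25 tested members with them had a median of -0.24 (18 lower, 0 higher), and the 34 without them -0.23 (24 lower, 4 higher). A match is no evidence of binding, and these are letters in a window only. The windows below, from 100 bases before to 20 after the start, are shown for the lowest members, for Rps18 as a member near the median, and for Rps15a as the highest, Rps18 having been chosen after its value was seen. Capitals mark CCGGAAG as read on the gene's strand. They lie at chr10:128549149-128549268 (- strand), chr2:180257279-180257398 (+ strand), chr17:33955646-33955765 (- strand) and chr7:118116128-118116247 (- strand).
Rpl41: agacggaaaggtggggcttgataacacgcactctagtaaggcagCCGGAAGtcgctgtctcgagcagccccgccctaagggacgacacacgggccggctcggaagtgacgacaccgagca
Rps21: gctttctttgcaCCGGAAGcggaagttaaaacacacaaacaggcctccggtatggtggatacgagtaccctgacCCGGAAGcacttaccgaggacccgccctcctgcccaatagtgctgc
Rps18: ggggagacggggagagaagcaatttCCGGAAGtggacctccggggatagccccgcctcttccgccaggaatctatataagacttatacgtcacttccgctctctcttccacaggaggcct
Rps15a: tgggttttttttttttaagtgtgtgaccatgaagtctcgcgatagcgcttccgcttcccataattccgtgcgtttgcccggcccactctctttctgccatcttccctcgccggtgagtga
Rpl41 (-0.72) and Rps21 (-0.59) hold 1 and 2 matches here, Rps18 (-0.23) holds 1, and Rps15a (0.34) holds none.

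The RSKi47 libraries at 0 and 0.5 h had the lowest ribosomal protein mRNA levels of the series, with group means of the median deviation of -0.19 and -0.26. Without LPS, 73 of 80 members were lower than in WT at 0 h and 0 higher (median -0.26), where 26.3% of all genes were lower and 26.8% higher with a median of 0.01. For 72 members the 4 RSKi47 libraries all lay below the 6 of WT, where 18.9% of all genes did so. The difference remained with LPS, with 69 lower and 1 higher at 0.5 h (median -0.24), where 24.5% of all genes were lower and 23.7% higher. At 1 h 66 were lower and 0 higher (median -0.18), where 26.3% were lower and 26.5% higher, and at 2 h 63 were lower and 0 higher (median -0.18), where 24.6% were lower and 27.5% higher. Without the libraries that stand apart the count at 0 h was 74 with a median of -0.25, and without RSKi47 0 h replicate 4 alone it was 71. At 2 h the count without the libraries that stand apart was 65 (median -0.19). Rps6 was at 13.62, 13.65, 13.66 and 13.61 against 13.79 to 13.92 in WT (-0.22, SE 0.04, adjusted p = 7.72e-06, limma). Rps3 was lower by -0.28 (SE 0.04), Rpl11 by -0.44 (SE 0.05), Rps19 by -0.33 (SE 0.06) and Rpl39, a small protein of the exit tunnel, by -0.61 (SE 0.06).

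Vehicle-treated cells of the PD0325901 experiment were also compared. DMSO for 10 min, compared with untreated WT cells, had 25 members lower and 2 higher (median -0.10), where 11.1% of all genes were lower and 12.5% higher. Against these DMSO libraries, 45 members were lower with RSKi47 and 0 higher (median -0.16), where 20.8% of all genes were lower and 21.8% higher. Against PD0325901 for 10 min 41 were lower and 1 higher (median -0.15), where 21.8% were lower and 22.8% higher. Between PD0325901 for 10 min and DMSO 0 members were called by limma, with 2 at an unadjusted p under 0.05 and 6 with array weights, and 0 of all 11971 genes were called. Of the PD0325901 libraries without LPS, 0 members were called between 70 and 10 min by limma (median 0.04, 7 at an unadjusted p under 0.05), where 2.62% of all genes were higher and 3.47% lower. In 30 members the 3 libraries at 70 min all lay above the 3 at 10 min, where 16.2% of all genes did so. RSKi47, DMSO and WT libraries bear different experiment names, so inhibitor and experiment cannot be told apart. Fibroblast markers were higher in RSKi47 than in WT at 0 h, both of the 2 tested of 5, with a median of 2.68 and a summed level of 5.38 to 9.42 against 4.05 to 4.43, while Dcn stayed below 0. Of the neutrophil markers 4 of 6 were higher (median 0.77). Their part in the result was not tested.

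Among the called members, only Rpl26 and Rpl34 reached a 2-fold difference in any of the comparisons made here, each time between RSKi47 and another arm. Rpl26, a large subunit protein near the exit of the tunnel, was at 5.46, 5.46, 5.50 and 5.53 with RSKi47 at 0 h and at 7.42 to 8.37 in WT (median 7.75, n = 6). The difference was -2.34 at 0 h (SE 0.28, adjusted p = 1.46e-11, limma) and -2.45 at 2 h (SE 0.31, adjusted p = 5.81e-11, limma). Over all RSKi47 times, 14 of 15 libraries were between 5.46 and 5.64, and replicate 2 at 0.5 h was at 6.13. DMSO libraries were at 8.21, 8.32 and 8.23. In 1 library outside the arm, Nfkb1[SS/AA] 0 h replicate 4, Rpl26 was at 5.50, while the other 5 of that group were between 7.54 and 8.40. The annotation names 6 pseudogenes of Rpl26. How reads were divided between Rpl26 and these was not tested, so its differences are uncertain too.

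Rpl34 was at 7.60, 7.42, 7.65 and 7.71 with RSKi47 at 0 h and at 8.97 to 9.41 in WT (median 9.30, n = 6), a difference of -1.64 (SE 0.13, adjusted p = 1.37e-19, limma). Summed with its more abundant copy Rpl34-ps1, the difference was -0.54, the copy alone being at -0.46. For Rps27, all 15 RSKi47 libraries were in the lower band. Summed with Rps27rt it differed by -0.37 from WT at 0 h, and by -0.34 in Elk1-/-Elk4-/- cells. Rpl37 differed by -0.13 with RSKi47 (adjusted p = 0.0585, limma), its copy Rpl37rt by -1.65 and their sum by -0.26.

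Map3k8[D270A] cells differed from WT in a minority of members, at 0 h a larger and at 2 h a smaller share than over all genes. At 0 h 9 members were lower and 1 higher (median -0.08), where 0.833% of all genes were lower and 0.606% higher. The lowest by its own row was Rpl34 (-0.37, SE 0.10, adjusted p = 0.0291, limma), but its copy Rpl34-ps1 differed by -0.08 and their sum by -0.11. Next were Rps28 (-0.35, SE 0.07, adjusted p = 0.000940, limma) and Rpl28 (-0.30, SE 0.05, adjusted p = 0.000567, limma), and Rpl21 was higher (0.14, SE 0.04, adjusted p = 0.0342, limma). In 12 members all 6 Map3k8[D270A] libraries lay below the 6 of WT, where 0.959% of all genes did so. The count of 10 became 6 without WT 0 h replicate 4 or Map3k8[D270A] 0 h replicate 1, 3 without WT 0 h replicate 5 or 6, 5 without Map3k8[D270A] 0 h replicate 5 and 4 without its replicate 4 or 6. At 2 h of LPS 4 members were lower and 0 higher (median -0.03), where 13.1% of all genes were lower and 14.6% higher. Among them were Rps16, Rpl24 and, by its own row, Rpl34 (-0.41), whose sum with Rpl34-ps1 differed by -0.040 with overlapping groups. Within WT replicates 4 to 6 and Map3k8[D270A] replicates 1 to 3, 49 were lower (median -0.12), and within the other replicates 1 (median -0.01), where WT has a single library at 2 h that is assumed to vary like the other groups. Leaving out 1 library gave 1 without WT 2 h replicate 4 or 7 or Map3k8[D270A] 2 h replicate 1, 2 or 3, 2 without WT 2 h replicate 6 and 12 without Map3k8[D270A] 2 h replicate 4.

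Nfkb1[SS/AA] and PD0325901 cells were compared with WT in the same way. At 0 h 12 members were higher and 5 lower in Nfkb1[SS/AA] cells (median 0.00), where 16.9% of all genes were higher and 15.1% lower, and without WT 0 h replicate 7 or Nfkb1[SS/AA] 0 h replicate 4 the count was 11. The highest were Rps4x (0.20, SE 0.03, adjusted p = 4.10e-06, limma) and Rpl10 (0.17, SE 0.03, adjusted p = 1.02e-05, limma), leaving aside the pseudogene Rpl32l, and Rps21 was lower (-0.28, SE 0.06, adjusted p = 0.000218, limma). At 1 h of LPS 39 were higher and 3 lower (median 0.11), where 20.5% of all genes were higher and 21.9% lower, and without the libraries that stand apart 24 were higher and 9 lower (median 0.03). In a fit on these groups alone 9 were called at 1 h. Rps15a (0.34, SE 0.05), Rpl3 (0.29, SE 0.04) and Rpl10 (0.28, SE 0.03) led, and were at 0.29, 0.23 and 0.23 without 1 h replicate 2. With PD0325901 at 1 h of LPS 13 were higher and 1 lower (median 0.04), where 16.4% of all genes were higher and 19.3% lower. Rpl3 (0.19, SE 0.04), which forms part of the peptidyl transferase centre, and Rps4x (0.18, SE 0.03) were the highest and Rps21 (-0.18, SE 0.06) the lowest.

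Transcript length moved with these differences between arms. Members have short transcripts, with a median annotated length of 772.5 bases against 2486.5 over all genes. Across all genes with a length, the Spearman correlation of length with the difference from WT at 0 h was 0.29 for Elk1-/-Elk4-/- and 0.45 for RSKi47, and for WT at 0.5 h against 0 h it was 0.42. Genes are not independent replicates, so these values are descriptions. The 133 genes that are not members but are as short (up to 1000 bases) and as abundant (mean over 11) had medians of -0.14, -0.21 and -0.08 in these 3 comparisons, where the members had -0.23, -0.26 and -0.10. Among the 73 abundant members themselves, the shorter 36 (under 780 bases) had medians of -0.26 and -0.32 for Elk1-/-Elk4-/- and RSKi47, and the longer 37 had -0.15 and -0.23. In the LPS response at 2 h the correlation with length over all genes was -0.01 in WT and -0.10 in Elk1-/-Elk4-/-, and the short abundant genes had medians of 0.12 and 0.23. Whether length or anything that goes with it accounts for a difference was not tested.

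**Figure D5:**
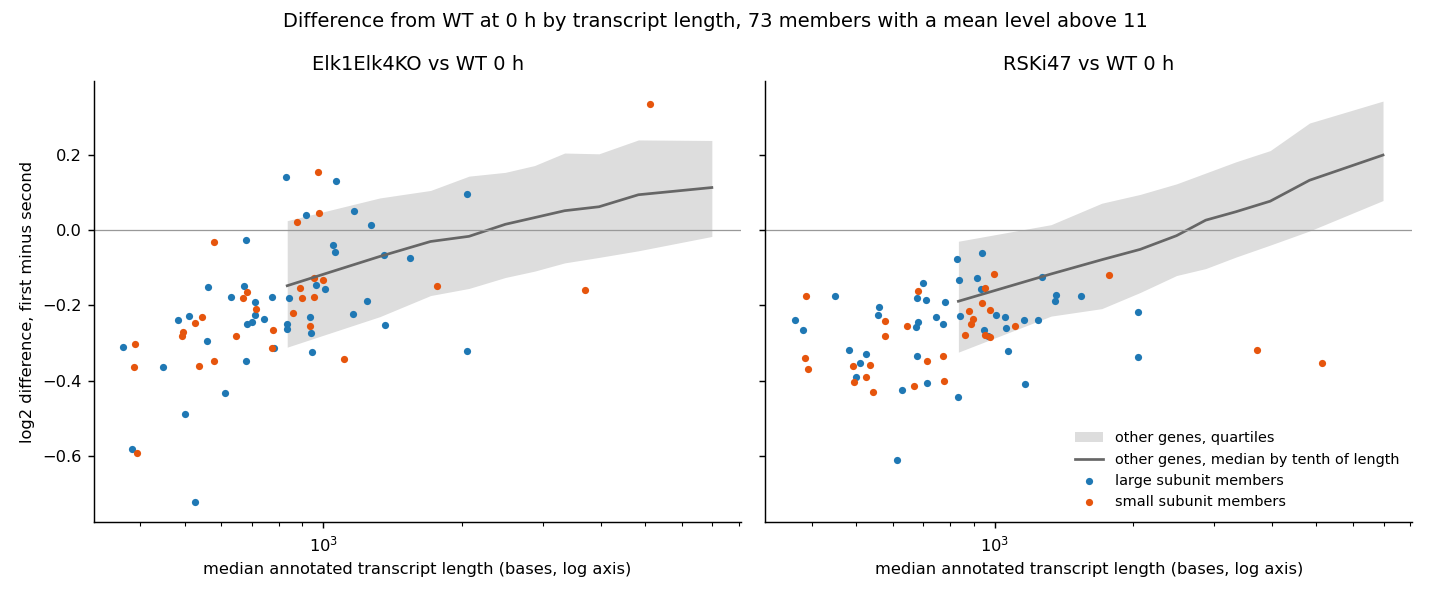
Log2 difference from WT at 0 h of the 73 members with a mean level over 11 against the median annotated transcript length (bases, log axis), for Elk1-/-Elk4-/- and RSKi47, with the median of the other genes in 10 bins of length as a line and their quartiles as a band. The line rises from -0.15 to 0.11 for Elk1-/-Elk4-/- and from -0.19 to 0.20 for RSKi47, and the member difference is lowest at -0.72 (Rpl41) and -0.61 (Rpl39).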

How the data were processed

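RNA of the BMDM libraries was sequenced single-end and strand-specifically. Per the submitters' processing notes the authors used STAR 2.5.1b, RSEM 1.2.29 and DESeq2 1.10.1 with mm10; they deposited normalised gene values on a log2 scale, whose transformation they do not name. Small differences on that scale may be shrunken. 1 value above 25 was set to missing. Members and gene lists were chosen with earlier results of these data known.

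Values were fitted with limma 3.58.1 in R 4.3.3 (lmFit and eBayes, Benjamini-Hochberg over all genes, called at an adjusted p below 0.05). WT, Map3k8[D270A] and Elk1-/-Elk4-/- comparisons used their 62 libraries and 11884 genes, and the rest all libraries and 11971 genes. Genes needed a linear value of 10 in 4 or 3 libraries. Transcript lengths and positions came from GENCODE M21 (GRCm38). The fit was tested on simulated data.

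Named genes were members fixed by role, up to 3 called members with the largest difference in each direction of a comparison, and the members with the highest and lowest mean level; Rps12, Rps18, Rps3a1 and Rpl37 were chosen after their values were seen, as were the alternatives without 4 libraries that stand apart and with copies summed. Same-numbered libraries deviated together within WT (0.5 h, r = 0.45 to 0.79; 2 h, 0.17 to 0.47), Map3k8[D270A] (2 h, 0.12 to 0.41), Nfkb1[SS/AA] (1 h, 0.14 to 0.52) and RSKi47 (2 h, 0.35 to 0.62), so numbers pair the libraries there, from the data and not the labels; they did not for Elk1-/-Elk4-/- at 2 h (-0.05 to 0.31), PD0325901 (-0.27 to -0.03) or between arms. Alternatives were another filter, centring, array weights, an intensity trend, fits on the groups alone, the replicate block, sets of replicates and leaving out each library. Some members are not reported here by name.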

Additional observations from a re-analysis of the deposited data

Results flagged for a closer look

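In 180 tests, made in each group of 4 or 6 libraries for each of 9 quantities, 13 found a library whose gap to the others passed Dixon's 95% limit, where chance alone gives about 1 in 20. Replicate 2 of Nfkb1[SS/AA] at 1 h was such a library for the median level of the members (13.77, others 13.18 to 13.34), Rps6 (14.34, others 13.84 to 13.96), Rpl24 (13.23, others 12.72 to 12.82) and Rps21 (12.72, others 11.87 to 12.19). In Map3k8[D270A] cells at 1 h, Rps6 was at 13.98 in replicate 4 (others 13.84 to 13.88) and Rpl24 at 12.64 in replicate 2 (others 12.59 to 12.61). In Elk1-/-Elk4-/- cells Rpl41 was at 12.98 in replicate 2 at 2 h (others at 13.16), Rpl26 at 8.83 in replicate 3 at 2 h (others 8.10 to 8.21), Rpl34 at 8.57 in replicate 2 at 0.5 h (others 8.96 to 8.99) and Rps15a at 12.997 in replicate 1 at 0 h (others at 13.05). Rplp0 was at 14.58 in RSKi47 replicate 3 at 0 h (others 14.53 to 14.54). In Nfkb1[SS/AA] cells at 0 h, Rps15a was at 12.96 in replicate 5 (others 12.75 to 12.81) and Rpl26 at 5.50 in replicate 4 (others 7.54 to 8.40). The response to LPS differed from that of WT by the interaction test for 15 members in Elk1-/-Elk4-/- cells, 2 in Nfkb1[SS/AA] cells and 1 under RSKi47.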

How the results depend on the processing

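Of the values for single named members, 2686 kept their call and direction under the alternatives, 233 lost the call, 63 gained it and 2 reversed. Of the counts and medians, 790 stayed within 1.5 times or the replicate spread and 148 moved; the cause was not tested. The counts of members called that follow are set against the reported ones. With a fit on the groups alone they were 15 for Elk1-/-Elk4-/- against WT at 2 h, 23 for the Map3k8[D270A] response at 2 h, 5 and 1 for Map3k8[D270A] against WT at 0 and 2 h, 2 for the Nfkb1[SS/AA] response, 0 for its interaction, 9 for Nfkb1[SS/AA] against WT at 1 h, 45 for the PD0325901 response, 9 for its interaction and 33 for WT at 0.5 h. With libraries centred on their median, the PD0325901 and RSKi47 response medians were 0.077 and 0.098, and counts were 8 for the Elk1-/-Elk4-/- interaction, 6 and 2 for Map3k8[D270A] against WT at 0 and 2 h, 24 for the RSKi47 response, 0 for its interaction, 3 for the Nfkb1[SS/AA] interaction, 29 for WT at 0.5 h and 0 at 1 h. With array weights the Map3k8[D270A] interaction median was -0.034 with 2 called, and counts were 67 for the Elk1-/-Elk4-/- interaction, 9 for the Map3k8[D270A] response, 27 and 45 against WT at 0 and 2 h, 12 for the Nfkb1[SS/AA] response, 0 for its interaction, 33 for it against WT at 0 h, 6 for PD0325901 against DMSO, 48 for the PD0325901 response, 22 for its interaction, 24 for it against WT at 1 h, 7 for the RSKi47 interaction, 66 for WT at 0.5 h and 4 at 1 h. With no filter they were 1 for the Nfkb1[SS/AA] and PD0325901 interactions, 0 for RSKi47 and 1 for WT at 1 h. With a replicate block they were 32, 4, 6 and 1 for the Elk1-/-Elk4-/-, Map3k8[D270A], Nfkb1[SS/AA] and PD0325901 interactions and 35 for WT at 0.5 h; with a block of shared numbers between arms, which do not pair the libraries, the Map3k8[D270A] against WT median at 2 h was 0.093, and counts were 8 and 10 for Nfkb1[SS/AA] against WT at 0 and 1 h and 9 for PD0325901 against WT. Among the comparisons refitted with a replicate block, no other count moved by over 1.5 times. Alternatives are not given here for the responses at 0.5 h outside WT or for WT at 2 h against 0.5 h. Nor are they given for Elk1-/-Elk4-/- and RSKi47 against WT at 0.5 and 1 h. The same holds for DMSO against WT, RSKi47 against DMSO or PD0325901, and the PD0325901 times without LPS against each other. In the set of WT replicates 4 to 6 with Map3k8[D270A] 1 to 3, Rps28 and Rps29 reversed in the Map3k8[D270A] response (-0.030 and -0.0080), the response and interaction medians were -0.043 and -0.061, and counts were 15 for the response, 5 for the interaction, 49 against WT at 2 h, 53 for WT at 0.5 h and 7 at 1 h. Within WT 7 to 9 and Map3k8[D270A] 4 to 6, the response medians were 0.24 (Map3k8[D270A]) and 0.13 (WT), and counts were 71, 4 for the interaction, 6 and 1 against WT at 0 and 2 h, and 1, 1 and 30 for WT at 0.5, 1 and 2 h. Without the 4 libraries that stand apart, counts were 8 for the Nfkb1[SS/AA] response, 0 for its interaction, 26 for it against WT at 0 h, 30 for the PD0325901 response and 8 for its interaction. Over 77 refits that each left out 1 library, counts ranged from 8 to 39 (Elk1-/-Elk4-/- interaction), 27 to 59 (Map3k8[D270A] response), 0 to 2 (its interaction), 3 to 11 and 1 to 12 (it against WT at 0 and 2 h), 8 to 45 (Nfkb1[SS/AA] response), 0 to 7 (its interaction), 11 to 16 (it against WT at 0 h), 10 to 18 (PD0325901 response), 0 to 1 (its interaction and that of RSKi47), 0 to 10, 1 to 2 and 11 to 22 (WT at 0.5, 1 and 2 h). A pseudocount alternative was not run, since the values are already on a log scale. Depth is unknown, so no count limit can be given for the low members.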
